A study of Mus musculus with 6 samples.

Results

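The variable (V) segment genes of the T cell receptor alpha and beta chains were followed here. They were chosen by name, as every row of the gene count table whose symbol starts with Trav or Trbv, which gave 141 of 26469 rows, 116 of them Trav (alpha) and 25 Trbv (beta). The libraries were made from splenic mouse CD4+ T cells that had been sorted as naive cells and cultured under conditions that drive differentiation into regulatory T cells. Those conditions were TGF-β at 5 ng/ml, hamster antibodies to CD3 and CD28, and antibodies to IL-4 and IFN-γ, for 36 h. Control cells (3 libraries, annotated WT) came from Sf3b1K700E/fl mice without Cre, so they carry the same conditional allele as the mutant cells. Mutant cells (3 libraries) came from Sf3b1K700E/fl mice with Cd4Cre, a recombinase driven by the Cd4 promoter, which turns on the K700E form of the splicing factor Sf3b1 in the T cell lineage. The labels name no strain, age or sex. Nor do they say whether each library came from a separate mouse. The p-values here thus set a group difference only against the spread among these samples, and part of that spread may be technical.

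Each developing T cell assembles its receptor genes by joining 1 V segment to a joining (J) segment, with a diversity (D) segment between them in the beta chain, and the joined exon is then spliced to a constant region (Trac for alpha, Trbc1 or Trbc2 for beta). The V segment encodes most of the part that contacts peptide and MHC, and its 3′ end, cut and trimmed at joining, begins the hypervariable loop CDR3. The beta chain is rearranged before the alpha chain, and the alpha locus can be rearranged repeatedly, starting with V segments near the J segments and moving to those farther away. In a culture of many T cell clones, the share of V reads taken by a segment reflects how many cells use it and how much receptor RNA each cell holds. Fewer cells of a type and less RNA per cell cannot be told apart in bulk RNA.

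By annotation, the Trav rows lie on chromosome 14 and the Trbv rows on chromosome 6. Of the Trav rows 110 are annotated as functional V genes and 6 as pseudogenes, and of the Trbv rows 22 and 3. The 3 Trbv pseudogenes are Trbv12-3, Trbv22 and Trbv24. Coordinates are not given, because the annotation used here (GENCODE M21, build GRCm38) is of another build than the counts. All 141 rows matched it by Ensembl gene ID.

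The mouse alpha locus holds a duplicated and a further copied block of V segments, whose members carry d and n in their names beside the undoubled name. Summing rows that differ only by d or n left 51 Trav groups, and 36 of these held several rows. Those 36 groups contained 101 of the 116 rows and 94.4% of all Trav counts. The last 60 bases of the annotated Trav12-2 transcript and of its copies are printed to show how little separates such rows. Capitals mark the bases that differ from Trav12-2.
Trav12-2: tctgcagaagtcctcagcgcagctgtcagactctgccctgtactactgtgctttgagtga
Trav12d-2: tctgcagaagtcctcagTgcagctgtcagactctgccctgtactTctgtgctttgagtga
Trav12n-2: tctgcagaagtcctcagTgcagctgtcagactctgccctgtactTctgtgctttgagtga
The Trav6-6 group shows the other arrangement, in which the undoubled row and the d row are the same and the n row differs. Capitals mark the bases of Trav6n-6 that differ from Trav6-6.
Trav6-6: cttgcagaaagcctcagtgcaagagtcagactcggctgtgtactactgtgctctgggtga
Trav6d-6: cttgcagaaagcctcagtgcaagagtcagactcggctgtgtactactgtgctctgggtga
Trav6n-6: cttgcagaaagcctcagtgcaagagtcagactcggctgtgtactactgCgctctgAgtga

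The 3′ ends of the segments with the highest shares are printed because this is where V meets D or J. The last 45 bases of the annotated transcripts follow, from GENCODE M21, with capitals on the first in-frame cysteine codon (TGT or TGC, sense strand, within the last 24 bases). A conserved cysteine at this end of the V segment opens CDR3.
Trav7-4: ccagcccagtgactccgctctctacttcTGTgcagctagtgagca
Trav7d-2: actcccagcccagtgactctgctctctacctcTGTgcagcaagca
Trav6-7-dv9: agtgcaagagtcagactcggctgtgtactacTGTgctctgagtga
Trav6n-7: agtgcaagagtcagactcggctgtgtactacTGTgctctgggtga
Trav14n-1: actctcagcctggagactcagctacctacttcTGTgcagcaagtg
Trav14n-3: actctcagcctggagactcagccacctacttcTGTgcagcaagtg
Trbv3: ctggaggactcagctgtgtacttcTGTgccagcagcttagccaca
Trbv19: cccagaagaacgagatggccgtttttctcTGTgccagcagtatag
Trbv13-2: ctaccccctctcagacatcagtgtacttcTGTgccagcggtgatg
Trbv2: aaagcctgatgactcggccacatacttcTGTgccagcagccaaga
Trbv1: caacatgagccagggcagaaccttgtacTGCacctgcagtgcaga
Such a codon was present in 110 of 110 Trav and 21 of 21 Trbv rows annotated as functional, on the plus strand and with an annotated start codon. The 1 Trbv row on the minus strand was not examined. Among 42469 protein coding transcripts, 17.2% held one in the last 24 coding bases.

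Library totals ran from 33633196 to 43928723 counts, and V segments took a small part of them. Trav rows took 2397, 3510 and 2817 counts in control 1, 2 and 3 and 3723, 2770 and 2520 in mutant 1, 2 and 3. Trbv rows took 2719, 4937 and 3497 counts in control and 7534, 3760 and 3380 in mutant libraries. Mutant 1 therefore held the most V counts of both chains.
Markers of other cells differed between libraries. Cd8a, a marker of CD8 T cells, was at 24.3 CPM (counts scaled to a common library size by TMM) in control 1 and between 0.424 and 8.95 CPM in the other libraries, where Cd4 ran from 427 to 604 CPM and was 391 CPM in control 1. All 16 B cell genes followed were read in some library, though not each in every library. Their sum ran from 138 to 161 CPM in control and from 129 to 231 CPM in mutant libraries. Most of it was Ighm, so the sum hardly shows the other genes. Igkc, an immunoglobulin light chain constant region, was at 12.2 CPM in mutant 2, at 0.537 CPM in mutant 1, 2.26 CPM in mutant 3 and from 0.270 to 0.441 CPM in control libraries. Cd79a, a chain of the B cell receptor complex, was at 0.929, 0.467 and 0.826 CPM in control 1, 2 and 3 and 1.84, 5.15 and 2.20 CPM in mutant 1, 2 and 3 (adjusted p = 0.598 by edgeR, 0.0186 by DESeq2). Both genes were thus higher in every mutant library than in any control library, as were 6.6% of all genes tested. The other B cell genes overlapped between groups. In mutant 1, Ms4a1 was at 0, Pax5 at 0.0848, Cd79b at 1.64 and Ighm at 119 CPM. These lay below control 1, at 0.319, 0.784, 2.41 and 152 CPM, while Ighd and Ighv14-2 went the other way. Ms4a1 and Pax5, also B cell genes, were at 7.68 and 11.5 CPM in mutant 2, above every other library. All 13 gamma-delta T cell genes were read in some library, with sums of 2.92 to 17.8 CPM in control and 7.63 to 39.4 CPM in mutant libraries, highest in mutant 2. Summed myeloid genes stayed between 1.28 and 3.93 CPM, summed natural killer cell genes between 1.17 and 6.004 CPM and summed innate-like T cell genes between 0.0551 and 1.30 CPM, and the natural killer cell gene Ncr1 was at 0 in control 3, mutant 1 and mutant 3. All 8 markers of alpha-beta CD4 T cells were read in every library, with sums of 1351 to 2360 CPM. The part of the other cells in the results on V segments was not tested.

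The beta chain was read from the same leading segments in both groups, and Trbv3 came first in all 6 libraries. Trbv3 took 12.1, 13.3 and 12.9% of the Trbv counts in control 1, 2 and 3 and 12.3, 12.5 and 10.4% in mutant 1, 2 and 3. Its mean share was 12.8 ± 0.61% in control and 11.7 ± 1.13% in mutant cells (SD, n = 3), and the groups overlapped (exact two-sided permutation test, p = 0.3). With 3 against 3 libraries that test cannot go below 0.1.
Trbv19 took 10.6, 10.4 and 10.3% in control and 11.1, 10.9 and 8.82% in mutant libraries. Trbv13-2 took 8.28, 8.02 and 7.86% in control and 9.11, 10.1 and 8.14% in mutant libraries. For both, the mutant values overlapped the control values. Trbv2, Trbv1, Trbv31, Trbv5, Trbv13-1 and Trbv4 had mean shares over all libraries between 5.25 and 7.20%, and in each the groups overlapped.
Trbv15 was the single Trbv row whose groups did not overlap. It took 5.33, 5.00 and 5.55% in control and 6.11, 6.36 and 5.95% in mutant libraries, a mean of 5.29 ± 0.27% against 6.14 ± 0.21% (SD, n = 3). The exact permutation p was 0.1, the smallest this design allows. One row in 25 is 4% of the Trbv rows, and 14.1% of all 18323 genes tested had groups that did not overlap in CPM. The count is thus below that percent, but CPM is another measure than a share. No background was made for shares.

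Trbv12-1, Trbv12-2 and Trbv16 are among the segments that viral or bacterial superantigens recognise in mice. In some strains thymocytes carrying them are deleted, and a strain without deletion keeps them. All 3 were read here in every library and in all 3 the groups overlapped. Trbv12-1 had 32 to 78 counts and Trbv12-2 had 62 to 195 counts per library. Trbv16 took 4.60 ± 0.55% of Trbv counts in control and 4.57 ± 0.33% in mutant cells.
At the low end, Trbv21 had 0 to 5 counts, the pseudogene Trbv12-3 had 0 to 3 and the pseudogene Trbv22 had 2 counts in mutant 1 and 0 elsewhere. A count of 0 says only that none was seen at this depth. The pseudogene Trbv24 was read in every library, at 4 to 40 counts.

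**Figure D1:**
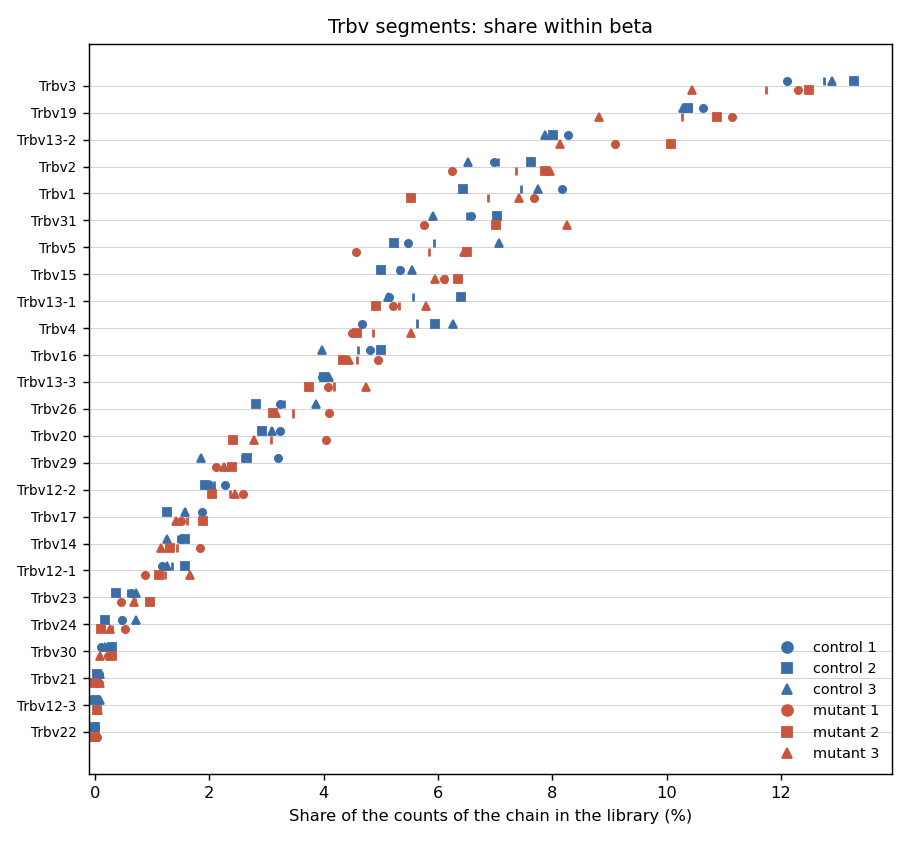
Share of each Trbv row in the Trbv counts of its library (x axis, percent), rows ordered by mean share; circles, squares and triangles are libraries 1, 2 and 3 of each group and ticks are group means. Trbv3 leads at 10.4 to 13.3% and only Trbv15 has mutant libraries all above the control libraries.

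A longer gene model collects more reads, so the order of the segments was also taken from counts divided by model length (291 to 566 bases for Trbv). On that scale Trbv3 led with 10.9 ± 0.90% of the length-scaled Trbv total (SD over 6 libraries) and Trbv13-2 followed with 10.3 ± 1.02%. The means of these neighbours lay within each other's SD over the 6 libraries. Their order within each library was not compared. Trbv19, the longest model, stood at 7.43 ± 0.59%, Trbv1 at 6.98 ± 0.95% and Trbv31 at 6.57 ± 0.88%, and their ranges of mean ± SD overlapped. Trbv13, the single Trbv family with 3 functional members, took 18.1% of Trbv counts together, at 17.1 to 18.4% in control and 18.4 to 18.8% in mutant libraries, which overlapped.

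The alpha chain was spread over many more rows, none of which exceeded 4.44% of the Trav counts in any library. The Trav row with the highest mean share was Trav7-4, at 3.09, 3.87 and 2.84% in control and 4.38, 3.21 and 4.44% in mutant libraries. Trav7d-2, Trav6-7-dv9 and Trav6n-7 followed, with mean shares over the 6 libraries of 3.54, 3.46 and 3.29%. Trav14n-1, Trav14n-3, Trav14d-3-dv8, Trav4-4-dv10, Trav14-2 and Trav10 had means between 2.17 and 2.94%. The groups overlapped in all 10.

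How counts were divided among copies matters for every Trav row. Per the deposited values, all 15 Trav rows without a copy held whole numbers in every library, but only 13 of the 101 rows with copies did (within 0.01). There were 16 pairs of Trav rows with the same annotated transcript sequence. In 7 of them, among these Trav12d-2 with Trav12n-2 and Trav6-6 with Trav6d-6, both rows held equal values in every library.
In the other 9 pairs 1 row held more than its copy in at least 1 library. For Trav15d-1-dv6d-1 and Trav15n-1 the first row held from 0.246% (mutant 3) to 100.0% (mutant 1) of the pair's counts. For Trav14d-1 and Trav14n-1 it held from 9.87% in mutant 1 to 50% in control 2. In the annotation used here the rows of such a pair cannot be told apart by sequence, and which gene models the authors counted on is not stated.

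**Figure D2:**
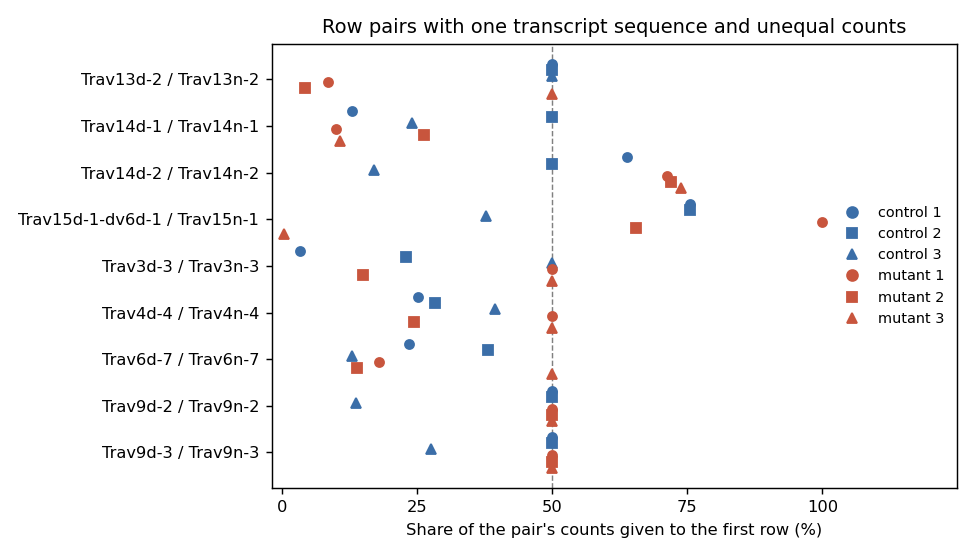
Share of the counts of 9 pairs of Trav rows with one annotated transcript sequence that was given to the first row of each pair (x axis, percent); symbols are libraries as labelled and the dashed line marks an equal division. The division differs from library to library, most widely for Trav15d-1-dv6d-1 with Trav15n-1.

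With copies summed, Trav6-7 and Trav14-3 led the alpha chain. Trav6-7 took 9.34, 8.48 and 7.35% of Trav counts in control 1, 2 and 3 and 7.49, 7.61 and 7.15% in mutant 1, 2 and 3. Trav14-3 took 6.17, 7.60 and 7.60% in control and 8.91, 6.71 and 8.58% in mutant libraries. The groups overlapped in both. Trav7-4, Trav14-1, Trav4-4 and Trav14-2 came next, with means over all libraries from 4.61 to 5.55%, and all 4 overlapped.
Among the 51 summed Trav segments 3 had groups without overlap (5.88%, against 14.1% of all genes in CPM), and all 3 were lower in mutant libraries. Trav7-6 took 2.65 to 3.25% in control and 1.73 to 2.54% in mutant libraries. Trav12-1 took 1.33, 1.48 and 1.21% in control and 1.10, 1.01 and 1.15% in mutant libraries. Trav3-1 rested on 3 to 7 counts per library.
Row by row, 8 of the 116 Trav shares did not overlap (6.90%), 2 higher and 6 lower in mutant cells. Trav14-3 and Trav14d-2 were the higher rows, and Trav16n, Trav8d-1, Trav13d-2, Trav9d-1, Trav3-1 and Trav9n-1 the lower ones. Of these 8, Trav3-1 was the row that has no copy.

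**Figure D3:**
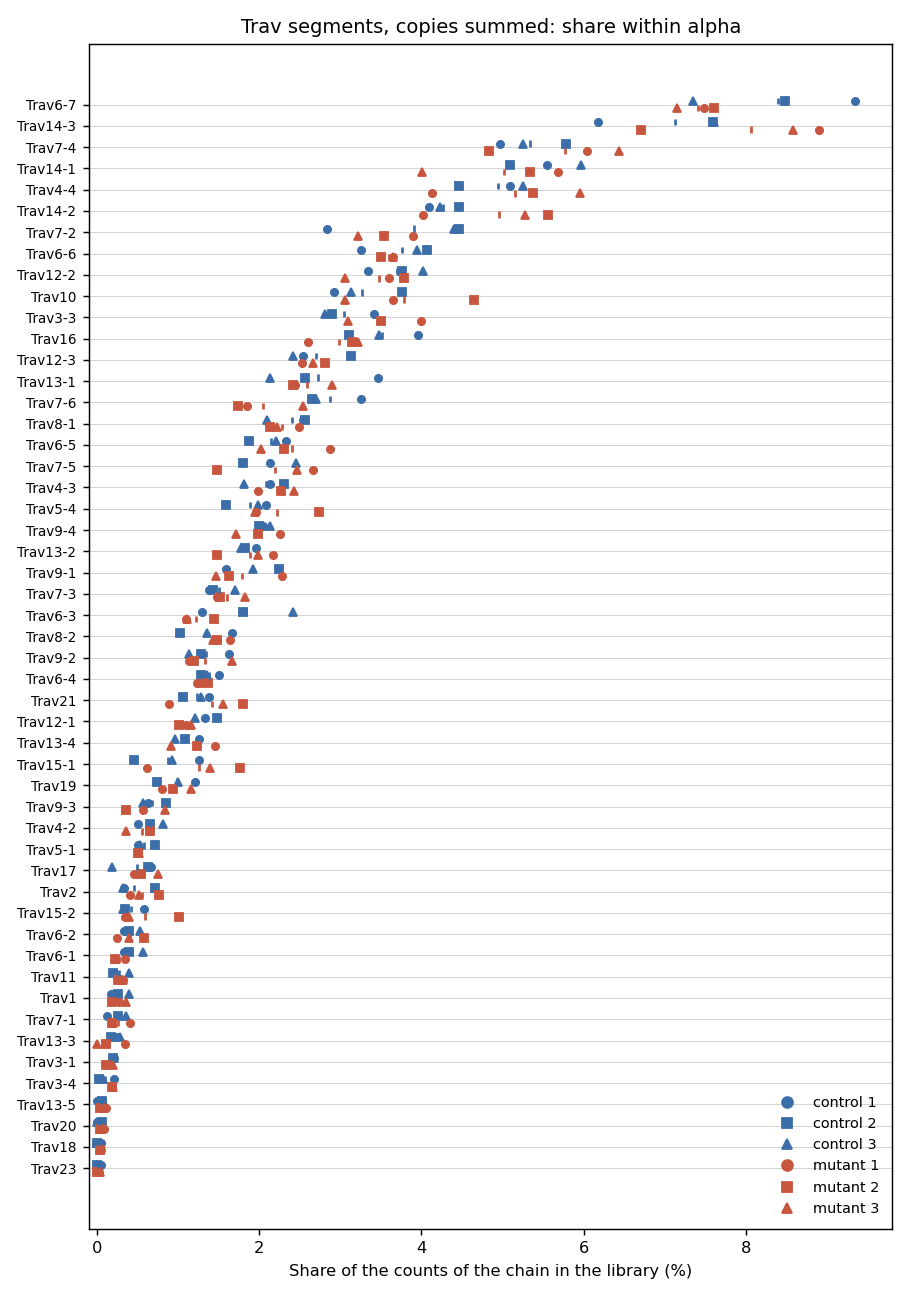
Share of each of 51 Trav segments, d and n copies summed, in the Trav counts of its library (x axis, percent), ordered by mean share; symbols are libraries as labelled and ticks are group means. Control and mutant points interleave for most segments, and Trav6-7 reaches 9.34% in control 1.

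Segments of innate-like T cells were rare in both groups. Trav11, used by invariant natural killer T cells, had 2, 3 and 9 counts in control and 11, 1 and 3 in mutant libraries. Its d copy Trav11d had 0 to 4. With the d and n copies summed, Trav11 had 5, 7 and 11 counts in control and 12, 7 and 8 in mutant libraries, which overlapped. Trav1, used by mucosal-associated invariant T cells, had 4, 9 and 11 counts in control and 10, 5 and 9 in mutant libraries. Trav1 thus took 0.27 ± 0.11% of Trav counts in control and 0.27 ± 0.09% in mutant cells (SD, n = 3). At 4 counts of 2397 in control 1, the 95% Clopper-Pearson interval of its share was 0.0455 to 0.427%, which covers counting error only. Zbtb16, the transcription factor of innate-like T cells, had 6, 6 and 0 counts in control and 6, 3 and 1 in mutant libraries. The other innate-like genes followed were highest in mutant 1. Klrb1c had 5, 2 and 1 counts in control and 27, 2 and 6 in mutant libraries. Slc4a10 had 4, 3 and 1 counts in control and 13, 7 and 3 in mutant libraries. The groups overlapped in each of these genes.

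By family, Trav14 (17.5% of Trav counts over all libraries), Trav6 (17.4%) and Trav7 (15.7%) held most of the alpha chain. The Trav6 family had 18.3, 18.2 and 18.4% in control and 16.9, 17.1 and 15.8% in mutant libraries, means of 18.3 ± 0.06% and 16.6 ± 0.69% (SD, n = 3), lower in mutant cells without overlap. It was the single one of the 22 Trav families without overlap (4.55%), beside 14.1% of all genes without overlap in CPM, which is another measure. No test was made of family sums. The 10 rows named with dv, whose segments can also join the delta chain, took 11.0 to 12.1% in control and 12.0 to 13.7% in mutant libraries and overlapped.

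Trav rows were also ordered by their place in the locus, from Trav1, farthest from the J segments, to the nearest. The 38 rows nearest the J segments, from Trav7-4 to Trav23, took 44.8, 41.6 and 41.0% of Trav counts in control 1, 2 and 3 and 45.2, 48.4 and 49.4% in mutant 1, 2 and 3. The means were 42.5 ± 2.08% and 47.7 ± 2.17% (SD, n = 3). All mutant libraries lay above all control libraries, with mutant 1 and control 1 next to each other. For comparison, 14.1% of all genes tested had groups without overlap in CPM, which is another measure than a share.
The 39 rows in the middle of the array took less in mutant cells without overlap, 30.6 ± 2.05% against 34.5 ± 1.46%. The 39 farthest rows took 21.7 ± 0.29% in mutant and 23.1 ± 2.43% in control cells, and overlapped. Shares of the parts add up to the whole in each library, so a higher near part goes with a lower sum of the others. Of the 38 nearest rows, 28 had a higher and 10 a lower mean share in mutant cells. The same count over all Trav rows is not given here, so this one has no background.
The nearest rows all have undoubled names, and the rows of the n copy all lie in the middle part. Over the whole array the undoubled names took 48.2 to 50.4% in control and 50.5 to 55.3% in mutant libraries. Rows of the n copy took 25.6 to 27.8% in control and 22.2 to 25% in mutant libraries. These sums depend on how reads were divided among copies. Place in the locus and that division thus cannot be told apart in them. In the 28 Trav rows with whole counts in every library, which hold 15.9% of Trav counts, the nearest rows took 77.8, 70.4 and 72.4% in control and 75, 76.6 and 78.8% in mutant libraries, and the groups overlapped. The difference was as large without the rows named with dv, where the nearest rows took 36.9 to 41.1% in control and 43.4 to 44.9% in mutant libraries. No test was made of these sums.

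Nearly all segments were read in each library. Of 116 Trav rows, 113, 112 and 110 were read in control and 111, 112 and 107 in mutant libraries. Of 25 Trbv rows, 24, 23 and 24 were read in control and 25, 23 and 24 in mutant libraries. Brought to the depth of the library with fewest counts, the numbers were 109 to 113 and 107 to 111 for Trav and 22.8 to 24 and 22.7 to 24.1 for Trbv, with overlap in both chains. With copies summed, 48 or 49 of 51 Trav segments were read in control and 50 or 51 in mutant libraries, a difference that rested on segments with few counts such as Trav18 and Trav20.
Evenness was described by the effective number of segments, the number of equally used segments that would give the same Shannon entropy. For Trbv it was 17.1, 16.6 and 16.9 in control and 16.9, 16.5 and 17.1 in mutant libraries. The 3 leading Trbv rows of each library took 31.2 ± 0.38% and 31.2 ± 3.20% of its Trbv counts (SD, n = 3). Pielou evenness, which is 1 when all rows are used equally, was 0.877 in both groups for Trbv.
For Trav the effective number was 77.4, 75.3 and 75.6 rows in control and 73.8, 73.3 and 72.3 rows in mutant libraries, lower in mutant cells without overlap. With copies summed it was 33.2, 32.5 and 33.1 in control and 32.5, 33.2 and 32.9 in mutant libraries, and the groups overlapped. Over the 58 Trav rows with 10 or more counts in every library it was 49.0 to 50.3 in control and 48.0 to 49.7 in mutant libraries, and the groups overlapped there too. The separation of the groups was thus seen over all rows, and neither in the better-read rows nor in the summed segments.

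**Figure D4:**
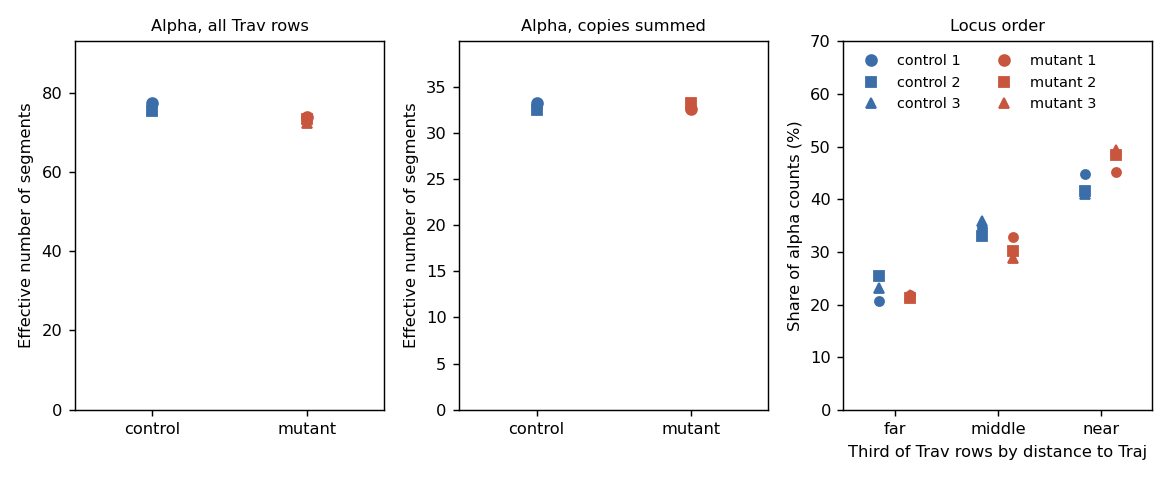
Left and middle, effective number of Trav segments per library counted over 116 rows and over 51 groups with copies summed; right, share of Trav counts (percent) in the far, middle and near part of the locus, by distance to the J segments. Mutant libraries lie below control libraries on the left (73.1 against 76.1 on average) but not in the middle, and above them at the near end.

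Libraries were compared pairwise by the Bray-Curtis dissimilarity of their shares, where 0% means the same shares and 100% no shared segment. For Trbv it was 5.97% on average within control (3 pairs), 8.39% within mutant (3 pairs) and 6.98% between groups (9 pairs). The most alike pair was control 1 with mutant 1, at 5.09%, and the least alike mutant 1 with mutant 3, at 9.56%. For Trav with copies summed the means were 8.81% within control, 9.85% within mutant and 9.30% between groups. Libraries of different groups were thus on average more alike than mutant libraries and less alike than control libraries.
The spread was larger than counting error. A chi-square of segment counts against equal shares was 2.48 per degree of freedom among control and 5.04 among mutant libraries for Trbv, where counting error alone gives about 1.00. It was 1.60 and 2.22 for Trav with copies summed. Intervals from counts cover counting error only and are too narrow for this spread. The source of the added spread, such as PCR copies counted as separate reads, was not tested.

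The total level of V segments followed the constant regions. Trbv rows summed to 78.9, 121 and 96.3 CPM in control 1, 2 and 3 and to 213, 106 and 91.8 CPM in mutant 1, 2 and 3. Mutant 1 stood 1.76 times above the next library and the other mutant libraries lay within the control range. The log2 ratio of the means was 0.47 with mutant 1 and 0.0048 without it, and the groups overlapped (exact permutation p = 0.6 over all 6 libraries).
Trav rows summed to 69.6, 86.2 and 77.6 CPM in the control libraries and to 105, 78.5 and 68.5 in the mutant ones, with a log2 ratio of 0.11 that was -0.083 without mutant 1 (exact permutation p = 0.8). The constant region genes moved alike. Trbc1 and Trbc2 summed to 294, 431 and 345 CPM in the control libraries and to 704, 361 and 330 in the mutant ones.
Per 100 counts on Trbc1 and Trbc2 there were 26.9, 28.1 and 27.9 Trbv counts in control and 30.2, 29.5 and 27.8 in mutant libraries. Per 100 counts on Trac there were 32.9, 33.6 and 33.0 Trav counts in control and 36.4, 36.9 and 33.3 in mutant libraries. Both ratios overlapped between groups through mutant 3 (exact permutation p = 0.3 and 0.2).

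**Figure D5:**
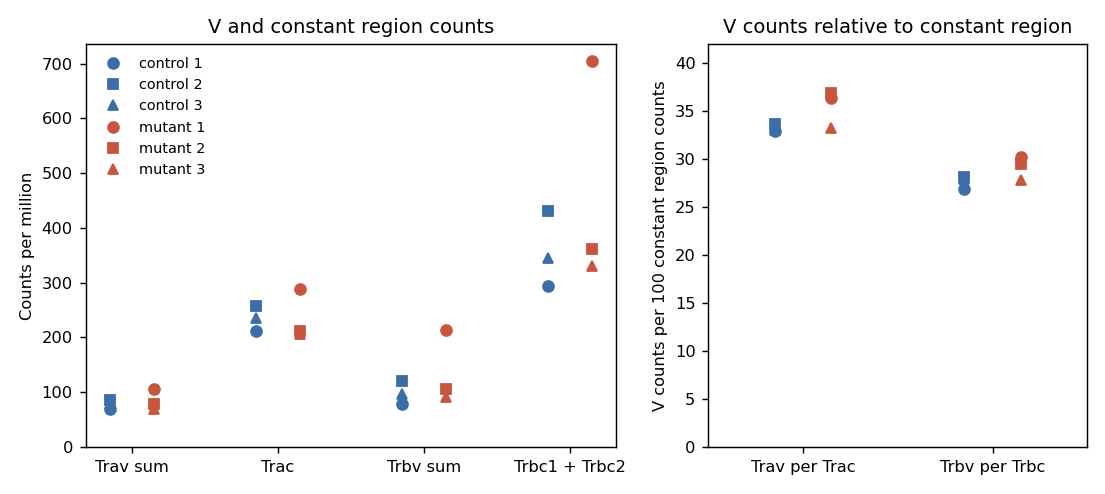
Left, CPM of the summed Trav rows, Trac, the summed Trbv rows and Trbc1 plus Trbc2 by library; right, V counts per 100 constant region counts. Mutant 1 is high in every measure on the left, while on the right the libraries lie within 26.9 to 30.2 for beta and 32.9 to 36.9 for alpha.

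In the comparison of all genes by edgeR's quasi-likelihood test, 104 of the 141 rows passed the filter on low counts, 82 Trav and 22 Trbv, and 0 were called at an adjusted p under 0.05. Over all genes, 0 of 18323 were called, a background of 0%. DESeq2 called 99 of 15628 genes (0.633%), of which 0 were V segments, and it gave no adjusted p to 40 of the 104 rows. At an unadjusted p under 0.05, edgeR had 2 V segment rows, 1 higher and 1 lower, against 7.62% of all genes (4.14% higher, 3.48% lower), and DESeq2 had 1 row.
In CPM, 2 of the 104 rows were higher (Trav14d-2 and Trav14-3) and 1 was lower (Trav13d-2) in mutant libraries without overlap, against 6.6% and 7.48% of all genes. All 22 Trbv rows tested had a higher mean in mutant cells, with a median log2 fold change of 0.49, but 20 of the 22 had their highest value in mutant 1. Without mutant 1 the Trbv median was -0.048. Of the 82 Trav rows 51 had a higher mean, with a median of 0.08, or -0.074 without mutant 1. Over all genes 52.9% had a higher mean and the median was 0.02.

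The rows with the smallest p were examined beside their copies. Trav14d-2 had 0.668, 0.909 and 0.303 CPM in the control libraries and 1.61, 1.10 and 1.28 in the mutant ones, a log2 fold change of 1.08 ± 0.45 (SE; edgeR adjusted p = 0.645, unadjusted 0.043). Its mutant values lay above its control values. Its annotated sequence is that of Trav14n-2, and the counts of the pair summed to 36.5, 73.5 and 63.0 in control and 79.5, 54.0 and 64.1 in mutant libraries, which overlap.
Trav13d-2 had 13, 18 and 14 counts in control and 3, 1 and 12 in mutant libraries, and its log2 fold change was -1.43 ± 0.70 (SE; edgeR adjusted p = 0.692). It shares its annotated sequence with Trav13n-2, and their sums were 26, 35 and 28 counts in control and 41.6, 18.9 and 25 in mutant libraries. These sums overlap too, with the highest and the lowest in mutant libraries. The log2 fold change of Trav13d-2 alone was -0.93 without mutant 2 and -2.76 without mutant 3.
Trav12n-3 had 32, 35 and 10 counts in control and 10, 9 and 12 in mutant libraries (log2 fold change -1.25 ± 0.52, edgeR adjusted p = 0.645), and with its copies summed the log2 fold change was 0.07 ± 0.32 (SE). Trav14-3 had 43, 60 and 44 counts in control and 82, 66 and 66 in mutant libraries (0.60 ± 0.30, edgeR adjusted p = 0.689), and 0.29 ± 0.30 with copies summed. Trav7n-6 (-0.80 ± 0.45, edgeR adjusted p = 0.716) was -0.51 without mutant 2 and became -0.39 ± 0.29 with its copies summed. In all 3 the summed value was nearer to 0.

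Among Trbv rows the smallest p belonged to Trbv15, with 4.21, 6.07 and 5.34 CPM in the control libraries and 13, 6.77 and 5.46 in the mutant ones. Its log2 fold change was 0.69 with a 95% interval from -0.13 to 1.51 (edgeR adjusted p = 0.705), and the CPM values overlapped. Trbv13-2, Trbv23, Trbv12-2 and Trbv31 had log2 fold changes of 0.66, 0.68, 0.71 and 0.49 (edgeR adjusted p from 0.713 to 0.733). Mutant 1 was the highest library for Trbv13-2, Trbv12-2 and Trbv31, and mutant 2 for Trbv23. Without mutant 1 the log2 fold change was 0.24 for Trbv15, 0.21 for Trbv13-2, 0.14 for Trbv12-2, 0.23 for Trbv31 and 0.61 for Trbv23. Trbv31 was at 0.74 without control 2. The 95% intervals of all 5 rows included both 0 and a log2 fold change of 1.

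The genes that work with the V segments were read from a list of 11, made of the constant regions Trac, Trbc1 and Trbc2, the signalling chains Cd3e, Cd3d, Cd3g and Cd247, the surrogate alpha chain Ptcra, and the recombination genes Rag1, Rag2 and Dntt. Of these 10 were in the table and 8 were tested, and 0 passed in either direction by edgeR (0 at an unadjusted p under 0.05). Trac, the alpha constant region, had a log2 fold change of 0.01 ± 0.17 (SE, edgeR adjusted p = 0.989), and Trbc1 and Trbc2 had 0.38 ± 0.28 and 0.38 ± 0.32. Cd3e, a signalling chain of the receptor complex, had 180, 264 and 205 CPM in the control libraries and 363, 189 and 209 in the mutant ones, with mutant 1 again the highest.
Dntt, which adds bases without template at the joins, had 30, 14 and 29 counts in control and 17, 3 and 6 in mutant libraries (log2 fold change -1.45 ± 0.66, edgeR adjusted p = 0.666), and the groups overlapped. Rag1, of the recombinase that cuts at V segments, had 10, 6 and 7 counts in control and 33, 6 and 7 in mutant libraries, highest in mutant 1. Ptcra had 0 to 10 counts per library. All 3 act mainly in the thymus and stood at 33 counts or fewer in each library. No rows for joining or diversity segments (symbols starting with Traj, Trbj or Trbd) were among the counted genes, so the pairing of V with J segments was not described.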

How the data were processed

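RNA from 6 samples (3 control, 3 mutant) was sequenced after ribosomal RNA removal, per the labels' protocols. Per the submitters' processing notes, the authors used STAR 2.7.8a and Partek with builds GRCm39 and mm39; no source used here gives the annotation, read length, use of strand or the rule for reads that match several genes. Values in the authors' deposited table are estimated counts without normalization, which were rounded to whole numbers.

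Shares are a row's percent of all Trav or all Trbv counts of its library. Group tests used filterByExpr (minimum count 10), TMM scaling and edgeR 4.0.16's quasi-likelihood test in R 4.3.3 on the whole table, with Benjamini-Hochberg adjustment over 18323 genes and a threshold of 0.05. DESeq2 1.42.0, copies summed, no filter, other scalings, the replicate block and leaving out each library were alternatives. The edgeR procedure was tested on simulated data. Single shares and chain totals were compared by exact two-sided permutation tests; evenness, likeness and locus order are described without tests. Type, length, order and sequence came from GENCODE M21 by gene ID. Named rows were the 10 leading Trav and Trbv rows, 5 of each with the smallest p, and Trav1, Trav11, Trav11d, Trbv3, Trbv12-1, Trbv12-2 and Trbv16; other rows named by lack of overlap or low counts were chosen after their values were seen. Members and lists were chosen with earlier results of these data known. 1 marker gene is not reported here.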

Additional observations from a re-analysis of the deposited data

How the results depend on the processing

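Under all 11 alternatives of the test, 0 V segment rows were called; with the replicate block, which could not be taken as a pairing (correlations of same-numbered samples from -0.067 to -0.028), the count was also 0 and the Trbv median log2 fold change 0.37. Leaving out 1 library in turn, the number of rows whose shares did not overlap ran from 16 to 26 for Trav (8 with all libraries). For Trbv it ran from 2 to 5 (1 with all). Fewer libraries overlap less often, and no share over all genes was taken with a library left out. The counts with a library left out thus have no background. With all libraries and copies summed the number was 3 for Trav. The mutant minus control difference in the number of Trav segments read was -1.67 over rows and 1.67 with copies summed, and that in effective number was -2.97 over rows, -0.73 over rows with 10 or more counts in every library (groups overlapping) and -0.069 with copies summed; the cause was not tested. The share of the rows nearest the J segments differed by 5.21 points, by 4.37 to 6.43 points when each library was left out, by 3.27 points in rows with whole counts and by 5.19 to 5.43 points in the other settings, all chosen after seeing the data, as were chain totals per constant region count and length-scaled shares. As edgeR called 0 genes in every setting, the calls say nothing on the stability of single rows, and some log2 fold changes moved by over 1.5 times when 1 library was left out. With 2397 to 7534 counts per chain and library, rows of few counts are limited by counting error.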
